A study of Mus musculus with 4 samples.

Results

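Dpt-type fibroblasts were 1658 of the 48038 barcodes in 4 single-cell libraries of mouse pancreas and pancreatic tumour, 351 in the AF12198-treated tumour, 970 in the control tumour, 238 in the ligated pancreas and 99 in the normal pancreas. They were chosen by their own counts of unique molecular identifiers (UMIs, each standing for 1 captured RNA molecule). A barcode was kept with at least 500 UMIs, at least 250 genes and at most 20% mitochondrial UMIs. It was called a fibroblast where Col1a1, Col1a2, Col3a1, Dcn and Lum together made up at least 1% of its UMIs and Ptprc and Pecam1 had at most 1 UMI each. A fibroblast was Dpt-type where its UMIs of Dpt, Clec3b, Gpx3 and Lum were at least as many as those of Tnc, Col8a1, Tagln and Col12a1, and Tnc/Tagln-type otherwise. Where any of the 14 genes of these rules is named below, its values describe the gate, with no test. All 14 were left out of all counts of differing genes.

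The AF12198 tumour grew from KPC cells, a mouse pancreatic ductal adenocarcinoma line, that were inoculated into a suture-ligated pancreas, and its host received AF12198, a small peptide that blocks IL1R1, by weekly intraperitoneal injection. The control tumour was the same allograft in a ligated pancreas with weekly saline. The ligated pancreas carried the suture, which occludes the duct and causes pancreatitis, without tumour cells, and the normal pancreas had neither. All tissues were taken at 4 weeks, digested with collagenase and run on the 10x Genomics 3′ platform. Every group was 1 library, and the labels used here give neither strain, sex, age nor the number of animals behind a library. No difference between groups therefore has a replicate check or a test, and treatment, animal and library cannot be told apart.

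Fibroblasts that express dermatopontin (Dpt) and the protease inhibitor-like Pi16 form a population found around vessels and in the capsule or interstitium of many mouse organs, often called adventitial or universal fibroblasts, and Col15a1 marks a related population inside the tissue. In pancreatic cancer, fibroblasts near tumour cells can turn contractile under TGF-beta, while interleukin-1 acting through IL1R1 and NF-kB is known to drive secretion of interleukin-6, chemokines and acute-phase proteins. Calcineurin and the NFAT transcription factors, which the study's title names, are a calcium-activated arm of inflammatory transcription.

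Dpt-type cells made up 74.8% (95% exact Clopper-Pearson interval 70.7 to 78.7) of the 469 fibroblasts in the AF12198 tumour, 79.0% (76.6 to 81.2) of 1228 in the control tumour, 95.2% (91.8 to 97.5) of 250 in the ligated pancreas and 100% (96.3 to 100) of 99 in the normal pancreas. Nearly all fibroblasts of the pancreas without a tumour were thus of this type by the gate, and both tumours held a lower share. These shares describe the outcome of the gate. Their intervals treat the cells of a library as independent, so they cannot show a difference between tissues, which was not tested. Of all kept cells they were 1.77% (1.59 to 1.96) in the AF12198 tumour, 4.53% (4.26 to 4.82) in the control tumour, 21.2% (18.8 to 23.7) in the ligated pancreas and 5.59% (4.56 to 6.76) in the normal pancreas. A narrower set of kept cells had no Ptprc UMI and little haemoglobin RNA. It allowed at most 1 UMI in all of S100a8, S100a9, Csf3r, Lyz2, Tyrobp and Fcer1g. In that order of groups it held 169, 462, 184 and 99 of the 351, 970, 238 and 99 Dpt-type cells. Their shares of this set were 9.56%, 20.02%, 27.0% and 5.74%, so the gap between the control tumour and the ligated pancreas was smaller there. Shares of a digest also depend on which cells survive it, and all intervals here cover counting error only.

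**Figure D1:**
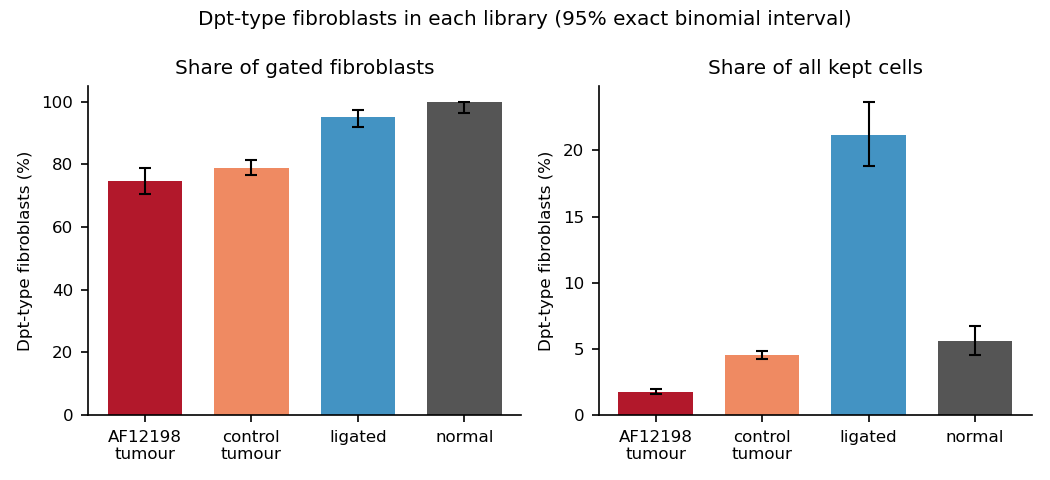
Share of Dpt-type fibroblasts (%) among gated fibroblasts (left) and among all kept cells (right) in each of the 4 libraries, with 95% exact binomial intervals. They hold 74.8% and 79.0% of fibroblasts in the AF12198 and control tumours, 95.2% in the ligated pancreas and 100% in the normal pancreas.

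Depth differed between the groups. The Dpt-type cells carried 3143541 UMIs in all in the AF12198 tumour, 8337931 in the control tumour, 1707960 in the ligated pancreas and 514426 in the normal pancreas, with medians per cell of 7448, 7224, 4943.5 and 2686 UMIs. Under 1000 UMIs were 13, 10, 20 and 31 of the cells. Library pairs shared 1 to 129 barcodes, none of them a Dpt-type cell in both. Free RNA, estimated from acinar, haemoglobin, neutrophil, T and B cell genes, came to 11.5% of the UMIs of Dpt-type cells in the AF12198 tumour, 15.96% in the control tumour, 20.1% in the ligated pancreas and 71.8% in the normal pancreas. The estimate rests on genes of other cell types and may be too high.

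Cells near the thresholds of the gate were counted. The 2 sums of the rule tied in 6, 21, 4 and 3 Dpt-type cells of the AF12198 tumour, control tumour, ligated and normal pancreas, and both were 0 in 5, 4, 3 and 3. Within 2 UMIs of a tie were 25, 51, 32 and 25 Dpt-type cells, and 8, 24, 2 and 0 Tnc/Tagln-type cells. The median Dpt-type cell had 32, 41, 25 and 9 UMIs of the Dpt set and 1, 1, 0 and 0 of the Tnc set. The median Tnc/Tagln-type cell had 24.5, 18 and 5.5 UMIs of the Dpt set and 66.5, 47 and 10.5 of the Tnc set in the AF12198 tumour, the control tumour and the ligated pancreas. Around the 1% threshold, 11, 22, 18 and 5 fibroblasts lay below 1.2% and 12, 31, 14 and 11 other barcodes lay between 0.8% and 1%.

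Levels are given as CPM, the UMIs of a gene per 1000000 UMIs summed over the Dpt-type cells of a library. Dpt, a matrix protein that binds collagen fibrils and the proteoglycan decorin, stood at 1061 CPM in the AF12198 tumour, 1832 in the control tumour, 1566 in the ligated pancreas and 869 in the normal pancreas (chr1:164796644-164824266, plus strand, GRCm38). Leukocytes of the same libraries (2 or more UMIs of Ptprc) had 2.44, 7.22, 13.0 and 0 CPM of it. After each cell was thinned to 1000 UMIs, Dpt was seen in 55.6% (50.1 to 61.0), 67.0% (63.9 to 69.95), 63.8% (57.0 to 70.1) and 45.6% (33.5 to 58.1) of Dpt-type cells, against 82.9%, 86.5%, 79.8% and 65.7% unthinned, and in 0.4%, 0.6%, 3.41% and 0% of thinned leukocytes. Clec3b, a plasminogen-binding lectin, ran the other way, with 294 and 310 CPM in the AF12198 and control tumours, 810 in the ligated pancreas and 1648 in the normal pancreas. The decorin gene Dcn stood at 6574, 8556, 8177 and 14795 CPM, and the fibrillar collagen genes Col3a1 at 16486, 12714, 14530 and 5204 CPM and Col1a1 at 10909, 12484, 14970 and 3052 CPM. Both collagen genes were lowest in the normal pancreas. All 5 genes belong to the gate, so their presence is no check of the label.

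Genes of both the adventitial and the parenchymal state were seen within the gate. Pi16, which marks adventitial cells, was seen in 21.3% (17.1 to 26.1) of thinned cells in the AF12198 tumour, 24.5% (21.8 to 27.3) in the control tumour, 24.8% (19.2 to 31.1) in the ligated pancreas and 10.3% (4.24 to 20.1) in the normal pancreas. Unthinned shares were 49.3%, 50.2%, 46.6% and 17.2%, and thinned leukocytes had 1.3%, 1.8%, 7.95% and 0%. Col15a1, a basement membrane-zone collagen, was seen in 36.7% (31.5 to 42.1), 44.9% (41.7 to 48.1), 34.4% (28.1 to 41.1) and 50% (37.6 to 62.4) of thinned cells in the same order, or 78.9%, 80.2%, 64.3% and 60.6% unthinned, with 1.4%, 1.5%, 0% and 0% in thinned leukocytes. The Pi16 level was 473 CPM in the AF12198 tumour, 422 in the control tumour, 392 in the ligated and 268 in the normal pancreas, and that of Col15a1 577, 755, 639 and 811 CPM.

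Clustering the 1584 Dpt-type cells with at least 1000 UMIs gave 9 clusters, described here by leading genes with no test. A cluster of 357 cells led by Cpxm2, Abi3bp, A2m and Pi16 held 110 cells of the AF12198 tumour, 239 of the control tumour and 8 of the ligated pancreas. One of 258 cells was led by immunoglobulin genes, the chemokine Cxcl12 and the acute-phase gene Saa3 (48, 195 and 15 cells). One of 232 cells was led by the calcineurin regulator Rcan1, Cryab, Ccl2 and Cthrc1 (69, 122 and 41 cells), one of 92 by Cxcl5, Aldh1a2 and Cxcl14 (31 and 61 cells of the AF12198 and control tumours), and one of 74 by Nrep, Spp1, Serpine2 and Grem1 (8 and 66 cells). Tnc and Inhba were among the leading genes of the 74 cells too, which had 917 CPM of Tnc, 308 CPM of Dpt and no UMI of Clec3b, so their leading genes go against the Dpt-type label. A cluster of 267 cells led by acinar enzymes with Abca8a held all 68 clustered normal cells, 153 of the ligated pancreas, 26 of the control tumour and 20 of the AF12198 tumour. Of the 338, 960 and 218 clustered cells of the AF12198 tumour, control tumour and ligated pancreas, the 357-cell cluster held 32.5%, 24.9% and 3.67%. The 258-cell cluster held 14.2%, 20.3% and 6.88%, the 232-cell cluster 20.4%, 12.7% and 18.8%, and the 267-cell cluster 5.92%, 2.71% and 70.2%. In the AF12198 and control tumours the 92-cell cluster held 9.17% and 6.35% and the 74-cell cluster 2.37% and 6.88%. With 1 library per group, a cluster made mostly of 1 library may be that library and not a state of the cells.

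The other 3 clusters raised 8 or more markers of another cell type. One of 161 cells raised all 10 mesothelial markers and 8 of 12 epithelial ones, led by Upk3b and Lrrn4. Another of 54 cells raised all 10 macrophage markers, led by Lyz2 and C1qa, and one of 89 cells raised 8 of 10 neutrophil markers, led by S100a8 and S100a9. Together they held 52 cells (15.4%) of the AF12198 tumour, 251 (26.1%) of the control tumour, 1 (0.459%) of the ligated pancreas and 0 of the normal pancreas. Dpt stood at 1370 CPM in the mesothelial-marker cluster, 911 in the macrophage-marker cluster and 2024 in the neutrophil-marker cluster, against 308 to 2025 CPM over the other 6 clusters. Dpt is a gene of the gate, so its presence in all 9 is no finding. RNA of other cell types also stood in clusters outside these 3: acinar enzymes led the one of 267 cells, and B and plasma cell markers summed to 2194 CPM in the one of 258 cells and 1574 CPM in the one of 92. Some results below are also given without the 304 cells of these clusters. Several other list counts changed in that setting too and are given over all cells only. That exclusion was chosen after the data were seen and leaves the acinar and immunoglobulin RNA of the other clusters in place.

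Over all Dpt-type cells, summed mesothelial markers came to 324 CPM in the AF12198 tumour, 502 in the control tumour, 201 in the ligated and 19.4 in the normal pancreas, where 8 of the 10 were at 0. Msln, Upk1b and Muc16 were at 0 in the ligated pancreas too. Macrophage markers summed to 709, 451, 82.6 and 21.4 CPM, neutrophil markers to 846, 485, 167 and 229 CPM and haemoglobin and other erythroid markers to 95.4, 1511, 0.585 and 0 CPM. In the normal pancreas 8 of the 10 neutrophil markers were at 0, and G0s2 alone held 98.3% of the neutrophil sum. Acinar enzymes summed to 1663, 459, 2138 and 2269 CPM, and B and plasma cell markers to 329, 859, 70.3 and 1.94 CPM. Islet endocrine markers summed to 9.23, 5.16, 38.6 and 879 CPM, and Ins2 made up 65.5% of the sum in the normal pancreas. At least 3 UMIs of endocrine markers were held by 42.4% of the Dpt-type cells of the normal pancreas. All 9 T and NK markers were at 0 in the normal pancreas. The part of this RNA in the differences below was not tested beyond the counts given.

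Ligated against normal pancreas asked what duct occlusion and pancreatitis were accompanied by in these cells. Secretory and chemotactic transcripts stood higher after ligation and lipid and steroid genes of the resting tissue lower. Of 8736 genes with enough UMIs (5 or more expected in each library at the pooled rate), 546 (6.25%) were at least 2-fold higher and 396 (4.53%) at least 2-fold lower, on log2 ratios of CPM + 5, with a median of -0.04. "Higher" and "lower" below mean past this 2-fold limit, which is a rule of size and not a test.

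NF-kB target genes stood higher together: 12 of 23 measured members (25 in the list) were higher and none lower, with a median log2 ratio of 1.06. Among them Il6, a cytokine that drives acute-phase synthesis, was at 316 CPM (539 UMIs) in the ligated pancreas and 38.9 CPM (20 UMIs) in the normal pancreas, an 8.12-fold difference (95% exact interval of the CPM ratio 5.203 to 13.4). Cxcl2, a neutrophil attractant, was at 617 CPM after ligation and 3.89 CPM (2 UMIs) in the normal pancreas, a ratio of 159 (43.8 to 1312), but leukocytes of the ligated library held 4807 CPM of it. The monocyte attractant Ccl2 was at 441 against 56.4 CPM, 7.82-fold higher (5.40 to 11.8). The inhibitor genes Nfkbia, at 860 against 410 CPM, and Tnfaip3, at 172 against 31.1 CPM, which shut NF-kB off, also stood higher. In thinned cells Il6 was seen in 11.9% (7.94 to 17.0) of cells of the ligated pancreas and 1.47% (0.0372 to 7.92) of cells of the normal pancreas, or 29.4% and 10.1% unthinned. Thinned leukocytes showed it in 1.14% and 5.00%. Summed over the 25 NF-kB list genes, Dpt-type cells held 6127 CPM in the ligated and 2521 CPM in the normal pancreas. All barcodes of these libraries held 5873 and 2271 CPM, so the list stood higher over the ligated library as a whole too. With free RNA subtracted, 4474 of the 8736 measured genes were higher in the ligated pancreas, and the part of free RNA in the NF-kB difference was not tested.

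Promoter sequence is shown for Il6 and Cxcl1, another neutrophil attractant of the list, because both carry the letters GGGANNTTCC, a common form of the NF-kB site. This pattern, searched on both strands from 250 bases before to 50 bases after each start, was in 482 of 32851 RefSeq promoters (1.47%), and in those of 6 of the 19 NF-kB list genes with an entry, namely Csf1, Cxcl1, Cxcl2, Il6, Nfkb2 and Nfkbia. The lines give GRCm38.p6 sequence on the plus strand, chr5:30012864-30013163 for Il6 and chr5:90890995-90891294 for Cxcl1, with the match in capitals. In Cxcl1 a match on each strand overlaps the other. A match describes these letters and does not show binding.
Il6 promoter: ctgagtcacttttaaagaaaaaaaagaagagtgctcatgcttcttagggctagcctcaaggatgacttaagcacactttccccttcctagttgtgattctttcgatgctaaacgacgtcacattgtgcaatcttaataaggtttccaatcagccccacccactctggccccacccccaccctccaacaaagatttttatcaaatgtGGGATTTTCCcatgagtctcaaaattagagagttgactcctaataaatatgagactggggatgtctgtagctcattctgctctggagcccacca
Cxcl1 promoter: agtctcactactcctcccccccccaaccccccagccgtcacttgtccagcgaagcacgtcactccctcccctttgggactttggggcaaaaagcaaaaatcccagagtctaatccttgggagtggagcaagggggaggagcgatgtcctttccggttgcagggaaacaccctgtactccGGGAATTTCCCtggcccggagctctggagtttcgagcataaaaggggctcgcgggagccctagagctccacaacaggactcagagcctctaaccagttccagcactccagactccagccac
The Cxcl1 level was 960 CPM in the ligated pancreas and 531 in the normal pancreas, 1.81-fold (1.59 to 2.06) and short of the 2-fold limit.

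Among inflammatory fibroblast genes 9 of 19 measured members (24 in the list) were higher and 1 lower, with a median of 0.98. Summed over the 24 genes, Dpt-type cells held 9489 CPM in the ligated and 4836 CPM in the normal pancreas. All barcodes of these libraries held 4976 and 688 CPM, so this list too stood higher over the ligated library as a whole. The serum amyloid gene Saa3 had 1342 UMIs (786 CPM) in the ligated pancreas and none in the normal pancreas. With 3 UMIs as the floor of the normal library, it was at least 135-fold higher. It was seen in 9.63% (6.06 to 14.3) of thinned cells of the ligated pancreas and in 0% (0 to 5.28) of the normal pancreas, with 17.6% and 0% unthinned, while thinned leukocytes of the ligated library showed it in 9.09%. Ptx3, a pattern-recognition pentraxin, was at 79.0 CPM and 0, at least 13.6-fold higher. Cxcl14, a chemokine of resting epithelia and stroma, went the other way, at 46.8 CPM in the ligated and 591 CPM in the normal pancreas, 12.6-fold lower (9.83 to 16.3). Complement and acute-phase genes were mixed, 4 of 16 measured higher and 2 lower (median 0.12). Haptoglobin, Hp, was at 150 CPM against 1.94 (1 UMI), a ratio of 77.4 (13.8 to 3069), and C7, a membrane-attack component, at 72.0 against 284 CPM.

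Matrix and activation genes followed. Timp1, an inhibitor of matrix metalloproteinases, was at 1037 CPM after ligation and 52.5 CPM in the normal pancreas, 19.8-fold higher (13.5 to 30.1). Postn, a matricellular protein of wound tissue, was at 669 against 33.0 CPM, 20.3-fold higher (12.6 to 34.9), and Cthrc1, secreted by injury-activated fibroblasts, at 155 against 3.89 CPM (2 UMIs), a ratio of 39.9 (10.9 to 331). The disintegrin protease gene Adam12 was at 114 CPM and 0, at least 19.6-fold higher. The Wnt modulators Sfrp2, at 300 against 3.89 CPM (2 UMIs), and Sfrp4, at 258 against 7.78 CPM, and the adhesion molecule gene Ncam1, at 163 against 3.89 CPM, were also among the top 8 of the naming rule. Fibronectin, Fn1, was at 2151 against 445 CPM. Of 37 matrix genes 8 were higher and 4 lower (median 0.60), and of 16 measured myofibroblastic genes (21 in the list) 7 were higher and 3 lower (median 0.65).

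Genes of the resting tissue fibroblast stood lower. Of 19 genes of Col15a1-type parenchymal fibroblasts 9 were lower and 1 higher (median -0.94), and of 21 measured lipid, steroid and adipose genes 10 were lower and 1 higher (median -0.94). Apod, a lipid carrier, was at 81.4 CPM in the ligated and 776 CPM in the normal pancreas, 9.53-fold lower (7.84 to 11.6). Hsd11b1, which regenerates active glucocorticoid, was at 54.5 against 453 CPM, 8.32-fold lower (6.51 to 10.7), and the lipid transporter gene Abca8a at 268 against 1361 CPM, 5.07-fold lower (4.50 to 5.72). Smoc2, a matricellular calcium-binding protein, was at 239 against 1462 CPM, 6.10-fold lower (5.40 to 6.90). The receptor gene P2ry1 (9.37 against 140 CPM), the laminin chain Lamc3 (5.27 against 89.4), the tryptophan-degrading enzyme Tdo2 (5.27 against 83.6) and the collagen-binding Fmod (11.1 against 126) completed those named by rank. Comp was named by the rule too, at 1.76 against 50.5 CPM, but 88.5% of its normal UMIs came from 1 cell. Of the 25 adventitial genes only 1 was higher and 2 were lower (median 0.18).

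Cell-cycle genes were higher in 6 of 11 measured members (17 in the list), none lower, on few UMIs. Mki67, a proliferation marker, was at 21.1 CPM in 5 cells of the ligated pancreas and 1.94 CPM in 1 cell of the normal pancreas. The transcription factor Runx1, known for activated fibroblasts, was at 218 against 29.2 CPM, 7.47-fold higher (4.47 to 13.5), and Tcf21, a factor of resting stromal cells, at 31.0 against 99.1 CPM. With free RNA subtracted, 4474 of the 8736 genes were higher and 840 lower. On that scale 8 matrix genes were lower and 4 higher, and of 16 complement and 25 adventitial genes 6 of each were lower and 3 of each higher. With cells weighted equally, 7 of 25 adventitial genes were higher and none lower, where 1275 of the 8736 genes were higher.

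**Figure D2:**
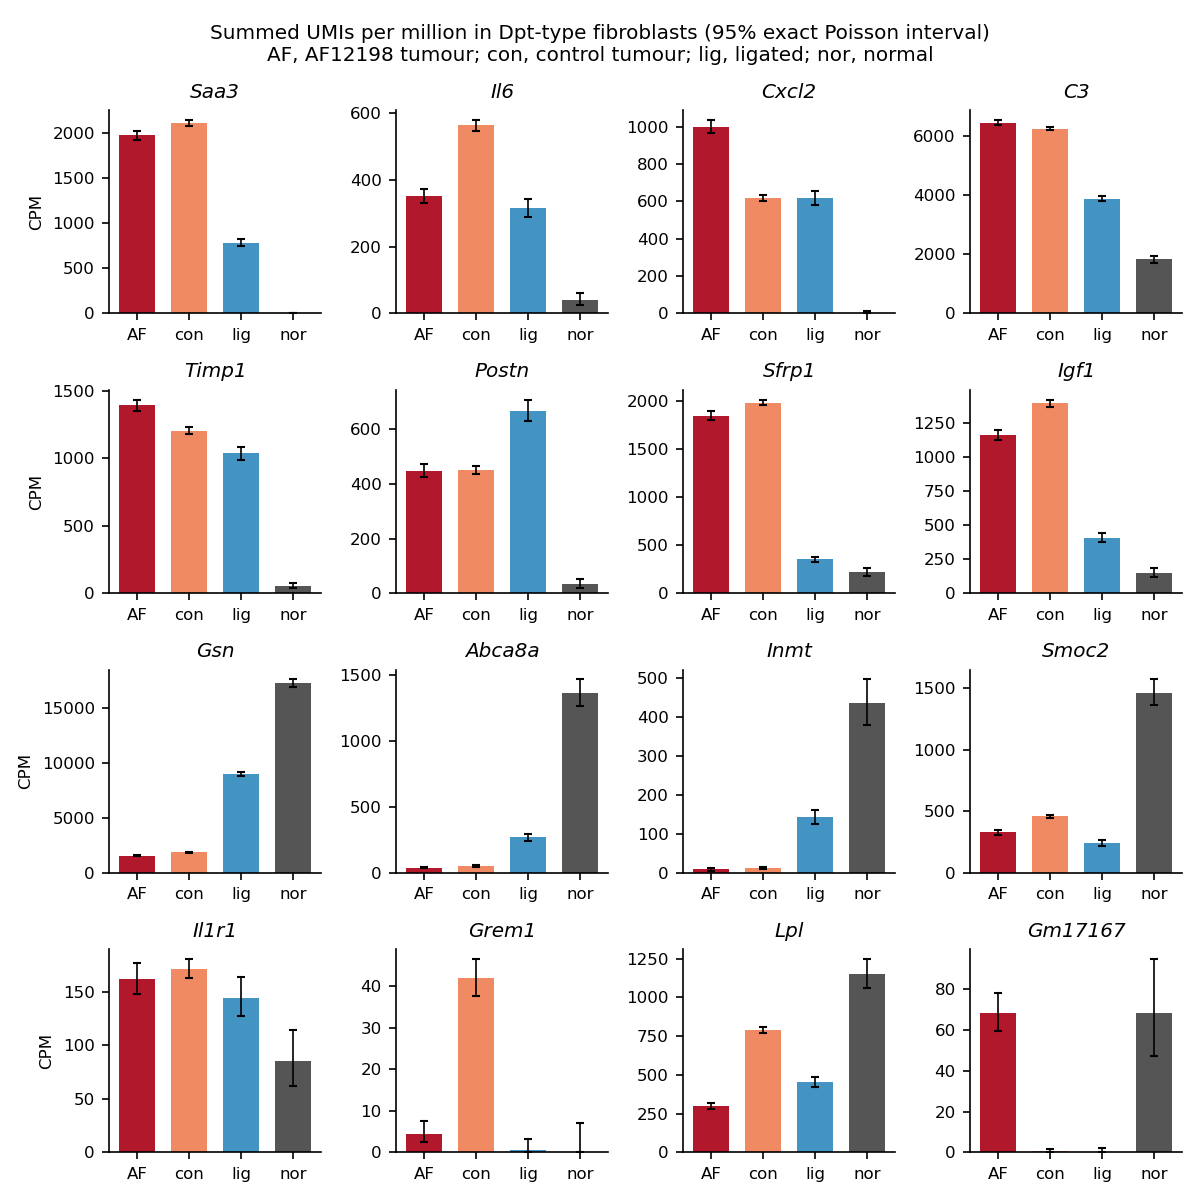
CPM of 16 genes in the Dpt-type fibroblasts of each library, with exact 95% Poisson intervals. Saa3, Il6, Cxcl2 and Timp1 are near 0 in the normal pancreas, Gsn, Abca8a, Inmt and Smoc2 are highest there, and Sfrp1 and Igf1 are higher in both tumours than in either pancreas without a tumour.

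Control tumour against ligated pancreas compared the tumour with the tissue that it was grown in. Its Dpt-type fibroblasts carried more complement, acute-phase and interferon-induced transcripts and fewer of some adventitial genes. Of 11702 measured genes 602 (5.14%) were higher and 242 (2.07%) lower, with a median log2 ratio of 0.10. Of 18 measured complement and acute-phase genes (20 in the list) 9 were higher and 1 lower (median 1.10), and the same counts held without the clusters that raise other markers. Saa3 was at 2117 CPM in the control tumour and 786 CPM in the ligated pancreas, 2.69-fold higher (2.55 to 2.85). Cfb, the complement factor of the alternative pathway, was at 710 against 176 CPM, 4.04-fold higher (3.60 to 4.56), and the protease inhibitor Serpina3n at 335 against 96.6 CPM, 3.47-fold higher (2.96 to 4.08). Clu, a chaperone that restrains complement, was at 630 against 186 CPM, with 8003 CPM in epithelial cells of the control tumour. C3, at 6264 against 3888 CPM, stayed short of the limit. Of the 24 inflammatory fibroblast genes 8 were higher and none lower (median 0.66), while NF-kB targets had 2 of 24 higher (median 0.33). Subtracting free RNA left 7 inflammatory genes higher and 1 lower (median 0.55). NF-kB targets then had 1 higher and 1 lower (median 0.05), where 699 of the 11702 genes were higher. Cxcl12, which holds lymphocytes and myeloid cells in tissue, was at 641 against 311 CPM, and the alarmin gene Il33 at 307 against 125 CPM.

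Of 27 interferon and MHC class I genes 13 were higher and 1 lower (median 0.90), or 11 and 1 without the clusters that raise other markers. Subtracting free RNA left 11 higher and 2 lower. The T cell attractant Cxcl9 was at 295 against 45.1 CPM, with 441 CPM in leukocytes of the control tumour, and the class I heavy chain H2-K1 at 1335 against 512 CPM, with 2630 CPM there. All 6 measured MHC class II genes (7 in the list) were higher, or 5 of 6 without the clusters that raise other markers. Cd74, the invariant chain, was at 386 against 15.2 CPM. Leukocytes of the control tumour held 5442 CPM of Cd74, thinned leukocytes showed it in 65.2% of cells and thinned Dpt-type cells in 22.6%, and with free RNA subtracted none of the 6 was higher. Il1b, at 280 against 24.6 CPM, and its antagonist gene Il1rn, at 131 against 9.95 CPM, were likewise at 4015 and 1472 CPM in leukocytes. Both belong to the IL-1 list, in which 7 of 16 measured members were higher and none lower (median 0.72), or 3 with free RNA subtracted (median 0.15), where 699 of the 11702 genes were higher. Without the clusters that raise other markers 6 of 16 were higher (median 0.45).

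Growth factor and matrix genes differed by member. Igf1, insulin-like growth factor 1, was at 1395 CPM in the control tumour and 406 CPM in the ligated pancreas, 3.43-fold higher (3.18 to 3.71). Sfrp1, a secreted Wnt inhibitor, was at 1987 against 350 CPM, 5.67-fold higher (5.23 to 6.17). Grem1, a BMP antagonist, was at 42.0 CPM against 0.585 CPM (1 UMI), a ratio of 71.7 (12.8 to 2840), in 52 cells of the control tumour. Timp3, a metalloproteinase inhibitor, was at 949 against 239 CPM and the protease Mmp3 at 366 against 72.0 CPM. Of 32 measured growth factor and receptor genes 7 were higher and none lower (median 0.40), and of 37 matrix genes 7 were higher and none lower (median 0.23). Myofibroblastic genes went both ways, 6 of 19 higher and 2 lower, with Cthrc1 at 58.2 against 155 CPM among the lower ones.

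Genes named by rank included the B cell attractant Cxcl13, at 134 CPM in the control tumour and 1.76 CPM (3 UMIs) in the ligated pancreas, a ratio of 76.2 (26.0 to 370) that came from 57 cells. The protease inhibitor A2m was at 170 against 15.2 CPM, 11.2-fold higher (7.60 to 17.2), and the adhesion molecule gene Chl1 at 398 against 52.1 CPM, 7.64-fold higher (6.19 to 9.54). Dio3, which inactivates thyroid hormone, was at 89.2 against 6.44 CPM, and Arxes2 at 85.3 against 5.27 CPM. The mesothelial genes Upk3b (51.5 against 0.585 CPM) and Lrrn4 (39.9 against 0.585 CPM) were named too, with log2 ratios of 3.34 and 3.01 that came to -0.03 and -0.07 without the clusters that raise other markers.

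Of 24 measured adventitial genes (25 in the list) 6 were lower and none higher (median -0.79), and 9 of 25 were lower without the clusters that raise other markers. Tnxb, tenascin XB of elastic connective tissue, was at 198 CPM in the control tumour and 703 CPM in the ligated pancreas, 3.56-fold lower (3.30 to 3.83), and Pcolce2, an enhancer of procollagen processing, at 25.9 against 113 CPM, 4.36-fold lower (3.57 to 5.32). Gsn, the actin-severing gelsolin, was at 1853 against 8968 CPM, 4.84-fold lower (4.73 to 4.95). Of 23 measured lipid, steroid and adipose genes 7 were lower and 2 higher (median -0.25). Inmt, a methyltransferase, was at 11.6 against 143 CPM, 12.3-fold lower (9.67 to 15.7), and Abca8a at 50.3 against 268 CPM, 5.34-fold lower (4.66 to 6.11). Ltbp4, which anchors latent TGF-beta, was at 93.8 against 487 CPM, Galnt15 at 21.5 against 169 CPM, the basement membrane chain Col4a4 at 2.04 against 33.4 CPM and Gm26885, annotated as an antisense transcript, at 20.9 against 122 CPM. Gsn, Abca8a, Inmt, Ltbp4 and Col4a4 were all higher still in the normal pancreas, at 17213, 1361, 435, 857 and 121 CPM. Some genes named by rank came from single cells: all 88 ligated UMIs of Car3 lay in 1 cell, and 62.1% of those of Ctrl, an acinar protease, in another.

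AF12198 against control tumour asked what blocking IL1R1 was accompanied by in these cells. Outside the markers of other cell types, every list median stood within 2-fold of the control tumour. Those of the IL-1, NF-kB and calcineurin/NFAT lists were among them. Most of the genes that passed the limit upwards were also 2-fold higher in leukocytes of the same libraries. Of 12682 measured genes 164 (1.29%) were higher and 181 (1.43%) lower, and the median log2 ratio was -0.20. Median-of-ratios scaling, whose factor takes out a log2 shift of -0.23, gave 309 higher and 85 lower, so the split of calls depends on the scale. Of the 164 higher genes 146 had at least 10 CPM in leukocytes, and 100 of these were also at least 2-fold higher there, where 156 of 8284 measured genes were. In epithelial cells 42 of 146 were 2-fold higher, where 106 of 8979 measured genes were. Of the 181 lower genes 43 of 132 with that level were 2-fold lower in leukocytes, where 193 of the 8284 measured genes were, and 61 of 147 in epithelial cells, where 726 of 8979 were. What the cell classes share through library and animal was not tested.

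**Figure D3:**
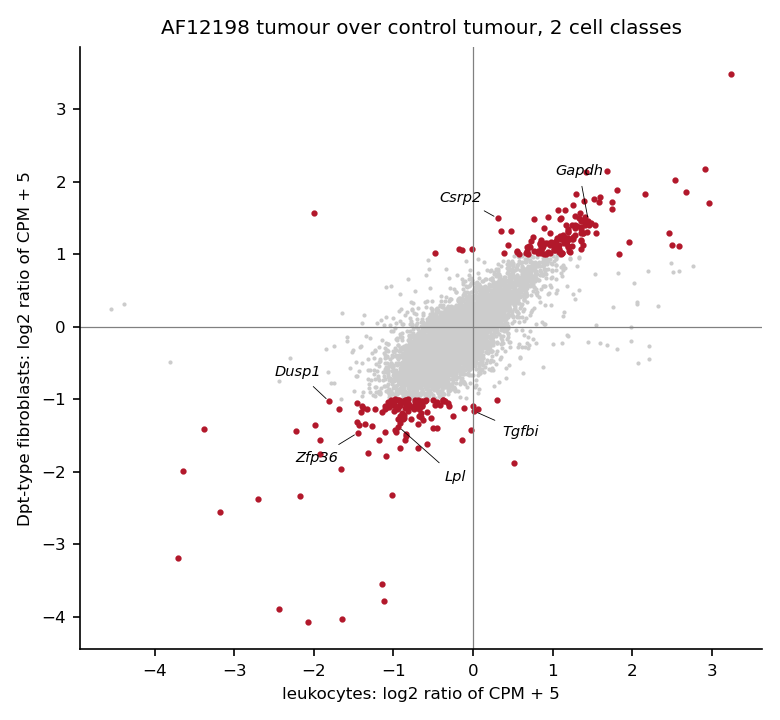
Log2 ratio of CPM + 5, AF12198 tumour over control tumour, in leukocytes (x axis) and Dpt-type fibroblasts (y axis). Each point is a measured gene with at least 10 CPM in leukocytes of either tumour, red where at least 2-fold different in Dpt-type fibroblasts. Of the 146 red genes higher in the AF12198 tumour, 100 were also 2-fold higher in leukocytes, and of the 132 lower ones 43 were 2-fold lower there.

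The IL-1 axis showed 1 of 16 measured members higher and none lower (17 in the list, median -0.29, or -0.12 on the median-of-ratios scale). Il1r1, the receptor that AF12198 blocks, was at 162 CPM in the AF12198 tumour, 172 in the control tumour, 145 in the ligated pancreas and 85.5 in the normal pancreas, and the ratio of the tumours was 0.945 (0.852 to 1.05). In thinned cells it was seen in 12.1% (8.85 to 16.1), 12.4% (10.4 to 14.6), 8.26% (4.97 to 12.7) and 14.7% (7.28 to 25.4), with 54.7%, 56.1%, 41.2% and 28.3% unthinned and 0.3%, 0.3%, 0% and 0% in thinned leukocytes. The accessory chain Il1rap was at 18.5, 23.5, 17.6 and 19.4 CPM, and the adaptor Myd88 at 34.0, 50.01, 31.6 and 48.6 CPM. The alarmin gene Il33 was at 331 and 307 CPM in the AF12198 and control tumours, 125 in the ligated and 66.1 in the normal pancreas. The member that passed the limit was Il1rl1, the receptor of IL-33, at 30.9 against 12.7 CPM between the tumours, 2.43-fold higher (1.82 to 3.23). Its log2 ratio of 1.02 lay near the limit, at 0.99 under a stricter cell filter and 0.85 with cells weighted equally, and leukocytes held 18.3 against 12.8 CPM.

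Among NF-kB targets 2 of 24 measured members were lower and none higher (25 in the list, median -0.34, or -0.14 on the median-of-ratios scale, where 1 was lower). Birc3, an anti-apoptotic ubiquitin ligase, was at 37.2 CPM in the AF12198 tumour and 96.9 CPM in the control tumour, 2.60-fold lower (2.14 to 3.19), and Tnfaip3 at 85.3 against 193 CPM, 2.27-fold lower (1.99 to 2.59). Both were also lower in leukocytes, by log2 ratios of -0.95 and -0.96. Il6 was at 351 against 564 CPM, a ratio of 0.623 (0.583 to 0.665), while Cxcl1 at 1223 against 773 CPM and Ccl2 at 979 against 597 CPM had ratios of 1.58 (1.52 to 1.65) and 1.64 (1.57 to 1.72). Il6 and these chemokines thus differed in opposite directions within the 2-fold limit. Saa3, at 1976 against 2117 CPM, and C3, at 6465 against 6264 CPM, had ratios of 0.933 (0.907 to 0.961) and 1.03 (1.02 to 1.05).

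The inflammatory list as a whole had 1 of 24 members higher and 2 lower (median -0.02). Il11, an IL-6 family cytokine, was at 27.4 against 4.92 CPM, 5.56-fold higher (3.79 to 8.28), in 32 and 35 cells. A single cell held 32.6% of its UMIs in the AF12198 tumour. Cxcl13 was at 41.4 against 134 CPM, 3.24-fold lower (2.70 to 3.91), in 15 and 57 cells, although the shares of cells that held it were 4.27% and 5.88%. Csf3, a growth factor for neutrophils, was at 0.636 CPM (2 UMIs) against 7.32 CPM, a ratio of 0.087 (0.0103 to 0.328).

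The calcineurin/NFAT list had no member past the limit in either direction among 14 measured (15 in the list), with a median of -0.43, or -0.23 on the median-of-ratios scale. The regulatory calcineurin subunit Ppp3r1 was at 57.3 CPM in the AF12198 tumour, 115 in the control tumour, 63.8 in the ligated and 48.6 in the normal pancreas, and the catalytic subunit Ppp3ca at 169, 240, 155 and 75.8 CPM. Nfatc1 was at 65.2, 99.8, 58.5 and 19.4 CPM, Nfatc3 at 33.1, 46.1, 41.6 and 29.2, Nfatc4 at 32.8, 46.3, 38.1 and 25.3 and Nfatc2, with few UMIs, at 4.77, 10.7, 7.03 and 1.94. Rcan1, a calcineurin inhibitor that NFAT induces, was at 163, 140, 124 and 25.3 CPM. In the ligated against the normal pancreas Rcan1 was 4.91-fold (2.81 to 9.38) and Nfatc1 3.01-fold higher (1.57 to 6.47), the 2 of 12 measured members past the limit there. With free RNA subtracted 7 of the 12 were higher, where 4474 of the 8736 genes were. In the control tumour against the ligated pancreas none of 14 was.

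Immediate-early genes leaned lower in the AF12198 tumour, 4 of 25 lower and none higher (median -0.50, or -0.27 and 2 lower on the median-of-ratios scale). Zfp36, which destabilises cytokine mRNAs, was at 577 against 1598 CPM, 2.77-fold lower (2.64 to 2.91), and Ier2 at 258 against 767 CPM. Junb was at 1415 against 3091 CPM and the phosphatase Dusp1 at 1056 against 2162 CPM. In leukocytes the log2 ratios were -1.45 for Zfp36, -0.86 for Ier2, -1.38 for Junb and -1.81 for Dusp1. These genes also respond to tissue digestion, whose part was not tested. Interferon genes had 4 of 27 lower and 1 higher, or 2 and 1 without the clusters that raise other markers, and 0 lower and 2 higher on the median-of-ratios scale. Gbp2 was at 78.6 against 178 CPM and Ifi27l2a at 597 against 193 CPM, the second also higher in leukocytes by 1.16 on the log2 scale.

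Lists of structure differed little by count. None of 25 adventitial genes passed the limit (median 0.11), or 3 were higher on the median-of-ratios scale. None of 37 matrix genes did (median -0.17), or 1 was higher on that scale. The elastic-fibre protein Mfap5 was at 1460 against 730 CPM, 2-fold (1.92 to 2.08) by ratio but just short on the log2 scale of CPM + 5, and was seen in 60.9% (55.5 to 66.2) of thinned cells of the AF12198 tumour and 37.3% (34.2 to 40.4) of the control tumour, or 84.6% and 75.1% unthinned. Of 19 measured myofibroblastic genes 2 were lower and none higher, but 1 was lower and 4 higher on the median-of-ratios scale. Complement and acute-phase genes had 1 of 18 lower and none higher, or none lower and 3 higher on that scale. Serping1, the C1 inhibitor, was at 3049 against 1754 CPM, a ratio of 1.74 (1.69 to 1.78), and Steap4, a metalloreductase, at 123 against 282 CPM, 2.30-fold lower (2.06 to 2.57).

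Among growth factor genes 2 of 32 measured were lower and none higher (median -0.20), and both encode secreted developmental factors. Fgf10, a mesenchymal signal to pancreatic epithelium, was at 2.23 CPM (7 UMIs) in the AF12198 tumour and 29.7 CPM (248 UMIs) in the control tumour, 13.4-fold lower (6.39 to 33.6), and at 12.3 and 29.2 CPM in the ligated and normal pancreas. It was held by 7 cells of the AF12198 tumour and 136 of the control tumour. Grem1 was at 4.45 against 42.0 CPM, 9.43-fold lower (5.54 to 17.4), in 6 and 52 cells, and at 0.585 and 0 CPM in the ligated and normal pancreas. Lpl, lipoprotein lipase, was at 301 against 789 CPM, 2.62-fold lower (2.45 to 2.81), with a leukocyte log2 ratio of -0.94.

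Among genes named by rank, Gm17167 had the highest log2 ratio, at 3.68. This transcript, annotated without a protein at chr4:42206998-42235313 on the plus strand (GRCm38), was at 68.4 CPM (215 UMIs in 114 cells) in the AF12198 tumour and 0.720 CPM (6 UMIs in 2 cells) in the control tumour, a ratio of 95.04 (43.0 to 262). It was at 68.0 CPM (35 UMIs in 22 cells) in the normal pancreas and had no UMI in the ligated pancreas. In the ligated pancreas it was at least 38.7-fold lower than in the normal pancreas. Leukocytes had at most 0.131 CPM of it in any library, and Tnc/Tagln-type fibroblasts 40.4 CPM in the AF12198 tumour and 0 in the control tumour. Whether near-identical copies share its reads was not tested.

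The other genes named as higher were Ppib, a folding enzyme of the secretory pathway, at 747 against 248 CPM, Csrp2, a LIM protein of mesenchymal cells, at 591 against 207, the pore-forming Gsdme at 40.1 against 11.6, Ndufa4l2, a mitochondrial gene induced by hypoxia, at 63.0 against 20.5, Selenom at 392 against 154, Ctla2a at 463 against 211 and the matricellular Ccn5 at 124 against 55.3 CPM. In leukocytes Ppib had a log2 ratio of 1.35, close to its 1.57 here. Those named as lower were Nrep at 26.1 against 109 CPM, the collagen Col24a1 at 12.1 against 46.1, the protease Adamts15 at 93.5 against 277, the matrilin Matn4 at 33.7 against 99.7 and Ssbp2 at 23.5 against 64.9 CPM. Nrep and Grem1 were leading genes of the cluster of 74 cells. It held 8 clustered cells of the AF12198 tumour (2.37%) and 66 of the control tumour (6.88%).

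**Figure D4:**
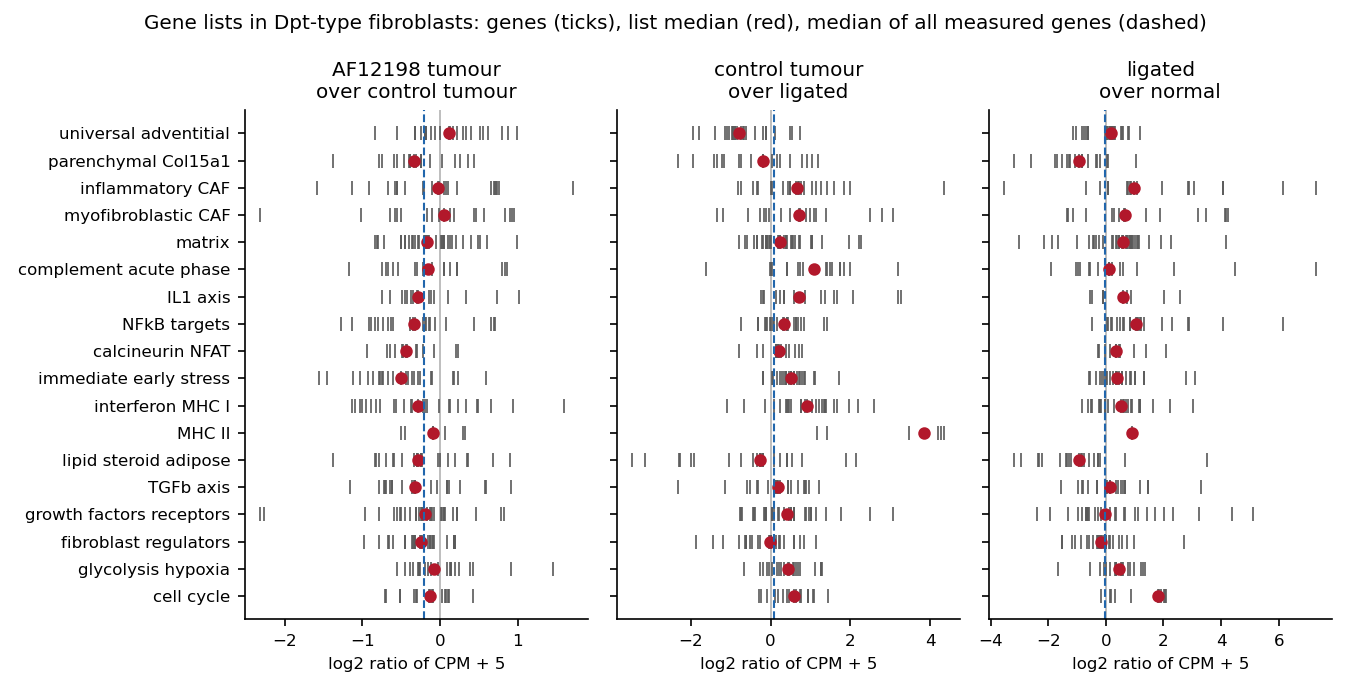
Log2 ratios of CPM + 5 of the measured members of 18 gene lists in Dpt-type fibroblasts for the 3 comparisons (ticks are genes, the red mark the list median, the dashed line the median of all measured genes). NF-kB and inflammatory lists lie right of the line in ligated over normal, complement and interferon lists in control tumour over ligated, and most list medians lie near -0.20 in AF12198 tumour over control tumour.

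Dpt-type cells were also set against the Tnc/Tagln-type fibroblasts of the same library, 118 in the AF12198 tumour and 258 in the control tumour. The values describe the outcome of the gate, which split the cells on Tnc and Tagln among others, and lower contractile genes follow from that choice. Of 11299 measured genes 395 (3.5%) were higher and 216 (1.91%) lower in the AF12198 tumour, and of 12755 in the control tumour 309 (2.42%) were higher and 206 (1.62%) lower. In both tumours 203 genes were higher and 109 lower. Complement and acute-phase genes were higher in 16 of 18 measured members in the AF12198 tumour and 14 of 18 in the control tumour, and adventitial genes in 16 and 15 of 24, with 1 lower in each. C3 was at 6465 CPM in Dpt-type against 1149 in Tnc/Tagln-type cells of the AF12198 tumour, and at 6264 against 969 CPM in the control tumour. Myofibroblastic genes were lower in 13 and 14 of 20 and higher in none.

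By rank over both tumours, the higher genes were Cxcl13, the collagen Col6a5, the acinar protease Ctrb1, Fmo2, Steap4, the ferritin receptor Scara5, Ly6c1, Tnxb, Efemp1 and Crocc2. Cxcl13 was at 41.4 and 134 CPM in Dpt-type cells of the AF12198 and control tumours and had no UMI in Tnc/Tagln-type cells of either. Scara5 was at 69.3 against 2.13 CPM in the AF12198 tumour and 80.1 against 6.21 CPM in the control tumour. Acinar enzymes were higher in 9 and 13 of 13, macrophage markers in 6 and 0 of 10, and MHC class II genes in 5 of 6 and 0 of 7 measured in the AF12198 and control tumours. Erythroid markers were lower in 4 of 4 and 0 of 5. The part of these in the other differences was not tested. The lower genes were the smooth muscle genes Actg2, Acta2 and Cnn1, with Spp1, Igfbp2, Ptprn, Cxcl14, Inhba, Stra6 and Cspg4. Acta2, smooth muscle actin, was at 200 CPM in Dpt-type against 1836 CPM in Tnc/Tagln-type cells of the AF12198 tumour, and at 193 against 1088 CPM in the control tumour. Osteopontin, Spp1, was at 333 against 4932 CPM and 678 against 4299 CPM. Mesothelial markers were higher in 9 and 5 of 10, in the presence of the mesothelial-marker cluster described above. Of 11336 genes measured in both types, 0 differed 2-fold between the tumours in opposite directions in the 2 types. In Dpt-type cells only 1.29% of measured genes were higher and 1.43% lower between the tumours, so this count says little about agreement.

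**Figure D5:**
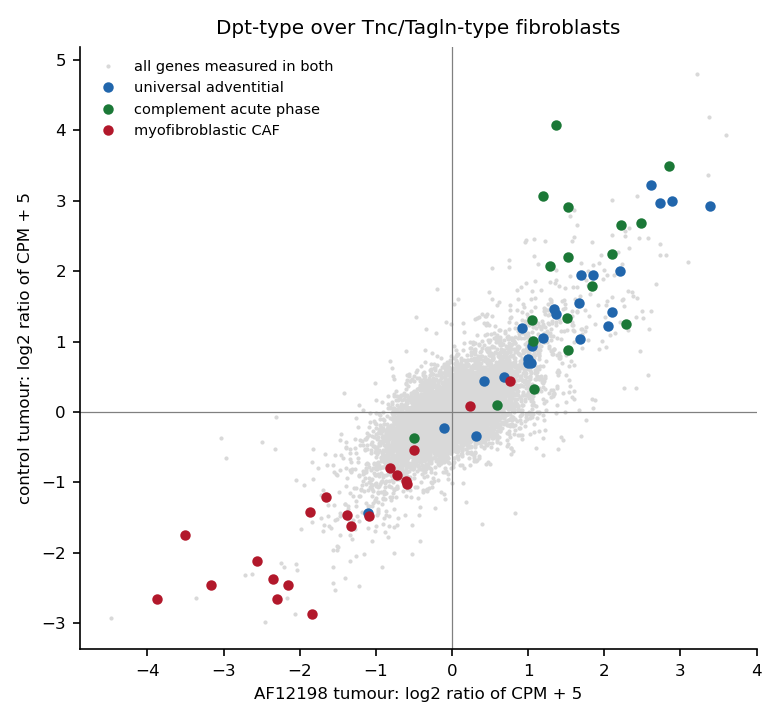
Log2 ratio of CPM + 5 of Dpt-type over Tnc/Tagln-type fibroblasts in the AF12198 tumour (x axis) and the control tumour (y axis) for genes measured in both. Adventitial (blue) and complement (green) genes lie mostly above 0 in both tumours, and myofibroblastic genes (red) mostly below 0.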

How the data were processed

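The authors deposited, per the file headers and the labels' protocols, 1 matrix of UMI counts per library, not normalized, with genes in rows and barcodes in columns. Cell Ranger 6.0.0 and the mm10 build are named in the submitters' processing notes. The lowest barcode of a library held 500 to 760 UMIs.

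Counts of the gated cells were summed per library and scaled to CPM. Genes needed 5 UMIs expected in each library at the pooled rate. Log2 ratios used CPM + 5, and a gene was called at 2-fold. Ratios have exact conditional 95% intervals, levels exact Poisson and shares exact Clopper-Pearson ones. With 1 library per group no test was run. The summaries were run on simulated Poisson counts with known fold changes. These counts carry no variation between cells or animals, so they check the calculation only. Shares of cells with a UMI were taken after thinning to 1000 UMIs. Leukocytes had 2 or more Ptprc UMIs and epithelial cells 2 or more of Epcam. Doublets were called with Scrublet in Scanpy 1.11.5 and left out only as an alternative. The caller marked 1 cell of the AF12198 tumour, so its top 5% of scores were used there. The calls hit 16, 90, 0 and 0 Dpt-type cells of the AF12198 tumour, control tumour, ligated and normal pancreas. Clusters used 2000 variable genes, 20 components, 15 neighbours and resolution 0.6.

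The members and gene lists were chosen with earlier results of these data known. Genes were named by rank: per comparison the 8 highest and 8 lowest ratios with 30 CPM in the higher library, an interval without 1 and at least 2 times the CPM of leukocytes and epithelial cells there (10 and 10 against the Tnc/Tagln type, 2-fold in both tumours). Up to 4 members of each list, and any IL-1 or calcineurin/NFAT member, could be added. Other list members, such as C3 in the tumours, were named after their values were seen. Python 3.11.15, NumPy 2.4.6, SciPy 1.17.1, pandas 2.3.3 and Matplotlib 3.10.9 were used. Gene positions are from GENCODE vM21 (GRCm38) and promoters from RefSeq (GRCm38.p6).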

Additional observations from a re-analysis of the deposited data

How the results depend on the processing

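No paired analysis was possible because each group is 1 library. Under 13 other settings, and 3 more chosen after seeing the data, the share of Dpt-type cells moved in 1 case, to 73.6% in the control tumour without the clusters that raise other markers. Counts of 2-fold genes moved by over 1.5 times in these cases. For the AF12198 over the control tumour they were 253 higher and 764 lower with 1 CPM as the pseudocount, 90 and 37 with 20 CPM, and 309 and 85 with median-of-ratios scaling. For the control tumour over the ligated pancreas they were 1083 and 496 with 1 CPM and 219 and 82 with 20 CPM. The lower count there was 629 with cells weighted equally, 499 with mitochondrial genes, Malat1, 2 rRNA-derived transcripts and the gate genes out of the total, and 135 with 20 expected UMIs required. For the ligated over the normal pancreas they were 206 and 178 with 20 CPM, 214 and 142 with 20 expected UMIs, and 4474 and 840 with free RNA subtracted. The higher count there was 1275 with cells weighted equally and the lower count 682 with no filter on low counts. The cause of these moves was not tested beyond what the settings change by construction. Of single genes, Car3 turned to 0.038 in the control tumour over the ligated pancreas at a fibroblast threshold of 2%, and Upk3b and Lrrn4 to -0.033 and -0.074 without the clusters that raise other markers. In the ligated over the normal pancreas Dact2 turned to 0.18 without cells holding UMIs of other types and Cxcl9 to -0.69 with cells weighted equally. No other named gene past 2-fold turned round. Depth limits the normal pancreas most, with 99 cells and 514426 UMIs.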
